A study of Mus musculus with 8 samples.

Results

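The interleukin-1 (IL-1) family of cytokines and receptors was examined in the lungs of mice after removal of the left lung. The listed genes were Il1a, Il1b, Il1rn, Il1r1, Il1r2, Il1rap, Il1rl1, Il18, Il18r1 and Il33, and 9 of these 10 were measured, among 18193 genes with a probe set that carried a single gene symbol. Il1rl1, the receptor for IL-33, had no probe set under its symbol in the annotation used and was not analysed here. The 9 genes were represented by 16 probe sets, and the brightest probe set on average stood for each gene. Female C57BL/6 mice of 10 to 12 weeks underwent left unilateral pneumonectomy (PNY), or a thoracotomy with no lung removed (SHAM). The vessels were flushed and the lungs taken whole, which after PNY left only the right lung to sample. RNA was prepared 6 hours, 1 day, 3 days or 7 days after surgery and hybridised to whole-genome oligonucleotide arrays. Each of the 8 arrays held RNA pooled from 8 mice, with 1 array for each surgery at each time point, so the spread between mice within a pool could not be seen. All animals of both groups had anaesthesia, mechanical ventilation, an opened chest, an antibiotic and an analgesic, and no array came from mice without surgery. Levels are given on the log2 scale, on which a difference of 1 is a fold change of 2.

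IL-1α, IL-1β, IL-18 and IL-33 are cytokines that alert neighbouring cells to injury or infection. IL-1β and IL-18 are made as precursors that caspase-1 cleaves within the inflammasome, while IL-33 is held in the nucleus of epithelial, stromal and endothelial cells and is released when these are damaged. IL-1α and IL-1β bind IL1R1, which pairs with the accessory protein IL1RAP and signals through MYD88 and the IRAK kinases to NF-κB. The family carries its own brakes: IL1RN is a ligand that occupies IL1R1 without signalling, and IL1R2 is a decoy receptor, abundant on neutrophils, that binds IL-1 and has no signalling domain.

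The arrays had near-equal distributions, with medians between 5.90 and 5.95. The summed linear level of 7 alveolar type II cell markers lay between 90660 and 98760 on all 8 arrays. At 1 day, 6 of 6 T cell markers were at least 1.5-fold higher on the PNY array than on the SHAM array. At 7 days, 4 of 5 striated muscle markers were at least 1.5-fold higher on the PNY array. The summed linear level of 11 neutrophil markers was highest at 6 hours, at 19760 in PNY and 18030 in SHAM. It was 13230 and 11780 at 1 day and 7738 and 7362 at 3 days. The lowest sum, 4730, was on the PNY array of 7 days.

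The main difference among the 9 genes was between 6 hours and the later time points, in both groups of mice. Il1r2, Il1rap, Il1b and Il1rn were higher at 6 hours than on average at 1, 3 and 7 days, and Il33 was lower. In limma's test with time point and surgery as terms and Benjamini-Hochberg adjustment over 45037 probe sets, 4 of 9 genes were called higher and 1 of 9 lower. Over all probe sets tested, 3.37% were called higher and 5.15% lower. Il1a, Il18, Il1r1 and Il18r1 did not pass the test. In whole lung, fewer cells of a type and less RNA per cell cannot be told apart, and since no array preceded surgery, a level at 6 hours could be set only against later levels.

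**Figure D1:**
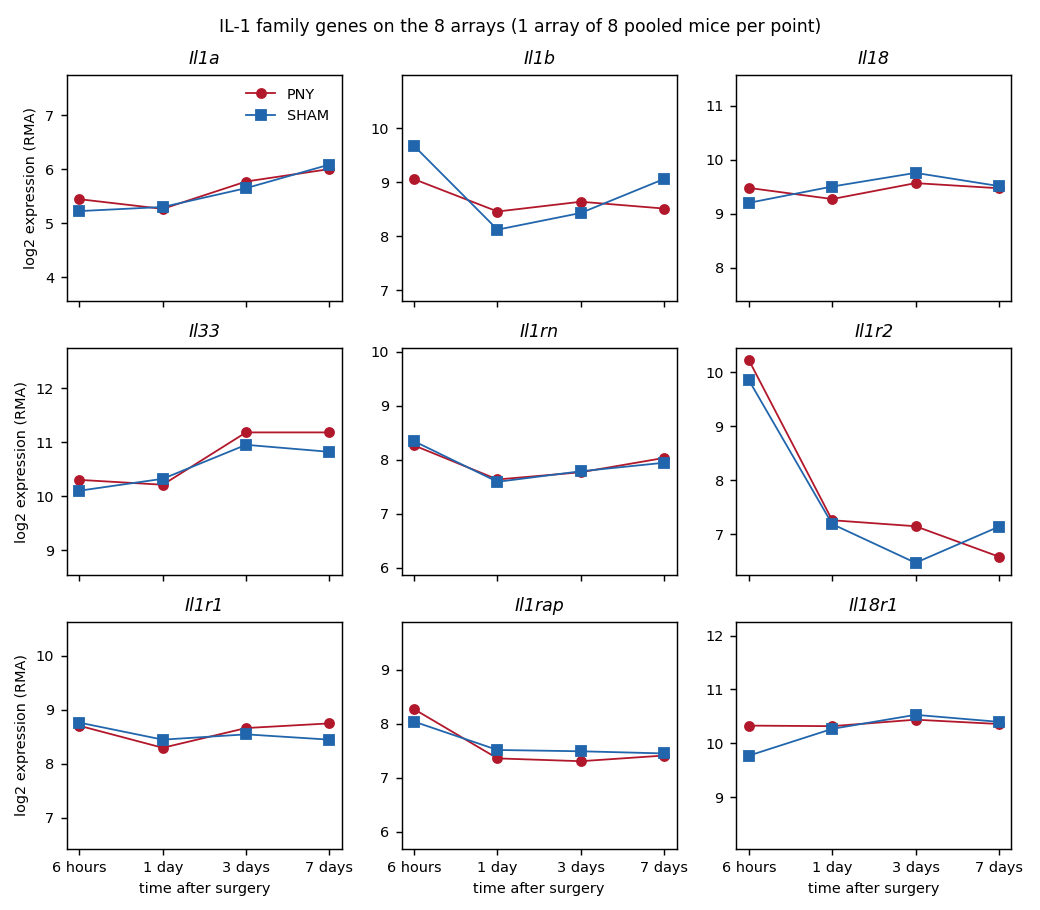
Log2 expression (y axis) of the 9 measured IL-1 family genes against time after surgery (x axis, 4 time points at equal spacing), with PNY arrays as red circles and SHAM arrays as blue squares, 1 array of 8 pooled mice per point. Every panel spans the same number of log2 units, and Il1r2 has the widest range, 3.75, with both 6-hour arrays far above the other 6.

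Il1r2 encodes the decoy receptor. It was at 10.22 in PNY and 9.85 in SHAM at 6 hours. At 1 day it was at 7.25 and 7.18, at 3 days at 7.14 and 6.47, and at 7 days at 6.58 and 7.13, in PNY and SHAM respectively. Both 6-hour arrays stood at least 2.59 log2 units above the highest later array, and the groups did not overlap. The difference was 3.07 (SE 0.208), an 8.41-fold higher level, with an adjusted p of 0.000685 in limma's test. Among the 18193 genes, ordered from the largest increase at 6 hours, Il1r2 was number 2. PNY arrays alone gave a difference of 3.22 and SHAM arrays alone 2.92. The means of the paired arrays ran in the order 6 hours, 1 day, 7 days and 3 days, and the last pair, at 6.86 and 6.81, differed by less than their SE of 0.255.

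Some neutrophil markers were also higher at 6 hours. Of 11 measured markers, 4 were called higher at 6 hours, 0 lower, and 7 had both 6-hour arrays above all later arrays. Over all probe sets, 3.37% were called higher, 5.15% lower, and 11.6% had both 6-hour arrays above. Mmp8, a neutrophil collagenase, was 5.01-fold higher (log2 difference 2.32, SE 0.137, adjusted p = 0.000459 in limma's test). Cxcr2, the chemokine receptor that draws neutrophils to tissue, was 2.62-fold higher, with an adjusted p of 0.00641 in limma's test. Clec4d and Trem1, receptors of myeloid cells, were 2.23-fold and 1.60-fold higher, and Clec4d lost its call with a trended and robust variance prior (adjusted p = 0.0824 in limma's test). S100a8 and S100a9, the most abundant neutrophil proteins of the list, were 2.21-fold and 2.47-fold higher but did not pass the test (adjusted p 0.0900 and 0.0565 in limma's test). The other 5 did not pass either, with log2 differences of 0.66 for Ngp, 0.46 for Csf3r, 0.25 for Mmp9, -0.06 for Camp and -0.12 for Ltf. When each array was left out in turn, between 1 and 8 of the 11 markers were called, and Mmp8 was the 1 marker called when the PNY or the SHAM array of 6 hours was left out. The summed linear level of the 11 markers went from 19760 in PNY and 18030 in SHAM at 6 hours to 13230 and 11780 at 1 day. On the log2 scale, Il1r2 went from 10.22 and 9.85 to 7.25 and 7.18. The part of neutrophil number in the level of Il1r2 was not tested.

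**Figure D2:**
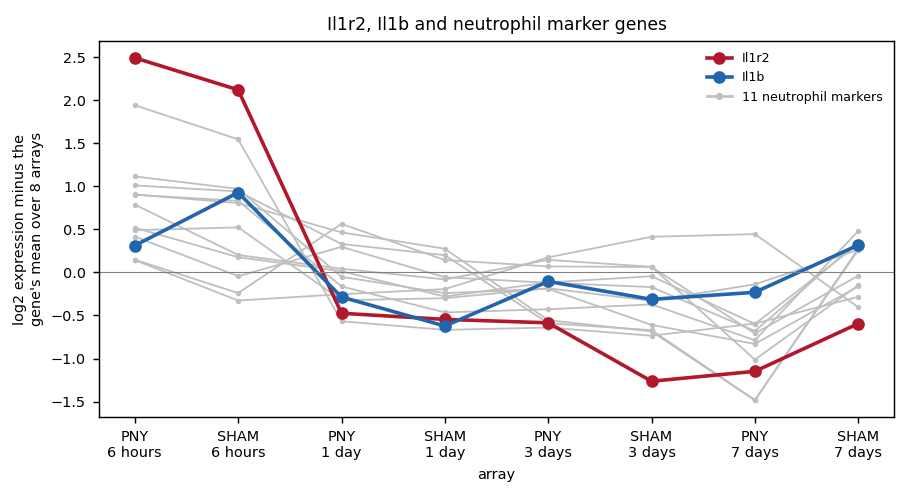
Log2 expression of Il1r2 (red), Il1b (blue) and 11 neutrophil marker genes (grey lines) on each of the 8 arrays (x axis), drawn as the difference from each gene's own mean over the arrays (y axis). Il1r2 and most markers are highest on both 6-hour arrays, and 8 of the 11 markers are at least 1.5-fold lower in PNY than in SHAM at 7 days.

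Il1b encodes IL-1β. It was at 9.06 in PNY and 9.67 in SHAM at 6 hours. At 1 day it was at 8.46 and 8.12, at 3 days at 8.64 and 8.43, and at 7 days at 8.51 and 9.06. The SHAM array of 6 hours was the highest, and the PNY array of 6 hours and the SHAM array of 7 days lay at the same level, so the groups overlapped. The difference was 0.83 (SE 0.199), a 1.77-fold higher level at 6 hours, with an adjusted p of 0.0437 in limma's test. It was 0.52 in PNY arrays alone and 1.13 in SHAM arrays alone. The call for Il1b was held in 2 of 8 fits that left out an array. Its adjusted p in limma's test was 0.397 without the SHAM array of 6 hours, 0.101 without the PNY array of 6 hours, and between 0.0510 and 0.0945 when a later array was left out (PNY 3 days, PNY 7 days, SHAM 1 day or SHAM 3 days).

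The sequences before the starts of Il1r2, Il1b and Il33 are shown because these genes carried the largest differences in time among the decoy receptor and the cytokines. They are the 250 bases upstream of the annotated start, from RefSeq on GRCm38.p6, written 5′ to 3′ on the strand of the gene. Capitals mark the letters TATAAA of the TATA box in Il1b and Il33 and the letters CACGTG of the E-box in Il1r2.
Il1r2, chr1:40085843-40086092, plus strand: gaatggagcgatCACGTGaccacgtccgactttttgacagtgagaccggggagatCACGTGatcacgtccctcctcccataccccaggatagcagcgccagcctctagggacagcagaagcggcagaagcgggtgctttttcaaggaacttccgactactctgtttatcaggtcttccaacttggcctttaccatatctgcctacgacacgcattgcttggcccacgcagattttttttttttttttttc
Il1b, chr2:129371140-129371389, minus strand: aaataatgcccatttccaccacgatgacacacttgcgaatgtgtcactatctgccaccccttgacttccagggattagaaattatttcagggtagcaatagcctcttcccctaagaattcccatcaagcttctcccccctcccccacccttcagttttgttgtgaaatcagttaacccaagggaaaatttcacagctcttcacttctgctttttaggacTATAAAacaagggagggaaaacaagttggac
Il33, second annotated start, chr19:29945540-29945789, plus strand: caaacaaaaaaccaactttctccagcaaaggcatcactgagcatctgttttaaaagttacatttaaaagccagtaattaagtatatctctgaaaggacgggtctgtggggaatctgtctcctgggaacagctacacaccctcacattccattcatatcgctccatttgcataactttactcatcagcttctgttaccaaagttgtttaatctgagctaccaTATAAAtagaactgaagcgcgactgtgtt

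The E-box letters stood at -238 to -233 and again at -195 to -190 before the start of Il1r2. TATAAA stood at -31 to -26 before Il1b and at -29 to -24 before the second start of Il33. It also stood further out, at -203 to -198 before the first start of Il33 and on the other strand at -175 to -170 before Il18. Il1a, not printed, held TATAAA at -32 to -27 and the AP-1 letters TGANTCA at -12 to -6. Il1rn held the AP-1 letters at -141 to -135 before its first start, and the second start of Il1r1 held a match to the NF-κB site on the other strand at -232 to -223. On either strand, the TATA box was in 12.4% of 32851 promoters of this length, the E-box in 6.02%, the AP-1 site in 6.75% and the NF-κB site in 3.90%. The letters of the 4 motifs do not occur within one another. These are matches of letters, and binding was not measured.

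Il1rap encodes the accessory chain that IL1R1 and the IL-33 receptor share, and like Il1r2 it was highest on both 6-hour arrays. It was at 8.27 in PNY and 8.04 in SHAM at 6 hours. At 1 day it was at 7.36 and 7.51, at 3 days at 7.30 and 7.49, and at 7 days at 7.41 and 7.45. The groups did not overlap, and the later arrays spread by an SD of only 0.0795. The difference was 0.73 (SE 0.112), a 1.66-fold higher level, with an adjusted p of 0.00933 in limma's test, and it was lost only without the PNY array of 6 hours (adjusted p = 0.107 in limma's test). The other 4 probe sets of Il1rap disagreed. Of these, 3, with differences of 0.65, 0.41 and 0.12, were also higher at 6 hours, at mean levels of 6.33, 3.24 and 3.18. Only 1 of the 3, that with 0.41, passed the test. The last, at a mean level of 5.91, had a difference of -0.10 (adjusted p = 0.689 in limma's test).

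Il1rn encodes the receptor antagonist. It was at 8.26 in PNY and 8.34 in SHAM at 6 hours. At 1 day it was at 7.63 and 7.59, at 3 days at 7.77 and 7.79, and at 7 days at 8.03 and 7.94. The 6-hour arrays were the highest of the 8, the 1-day arrays the lowest, and the surgeries differed by at most 0.0885 at every time point. The difference was 0.51 (SE 0.0924), a 1.42-fold higher level, with an adjusted p of 0.0168 in limma's test. The other probe sets of Il1rn gave 0.61, which passed the test, and 0.45, which did not (adjusted p = 0.0506 in limma's test). The call was lost when the 6-hour array of PNY, that of SHAM or the 3-day array of PNY was omitted, with adjusted p values of 0.0996, 0.168 and 0.0523 in limma's test. Il1r2, Il1rap and Il1rn were thus the 3 of 9 genes whose 6-hour arrays both stood above all later arrays, and 0 of 9 stood below. Over all probe sets, 11.6% stood above in this way and 12.6% below. For each of the 3 the exact permutation test over the 28 choices of 2 arrays gave a two-sided p of 0.0714, the smallest that this design allows.

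Il33 encodes the alarmin of lung epithelium and stroma, and it was the only gene of the 9 called lower at 6 hours. It was at 10.30 in PNY and 10.10 in SHAM at 6 hours and at 10.21 and 10.32 at 1 day. It was at 11.18 and 10.95 at 3 days and at 11.18 and 10.82 at 7 days. The 4 arrays of 6 hours and 1 day were therefore all below the 4 arrays of 3 and 7 days, and the 6-hour and 1-day arrays overlapped. The difference of 6 hours from later was -0.58 (SE 0.115), a 1.49-fold lower level, with an adjusted p of 0.0228 in limma's test. The call was lost when any array of 6 hours or 3 days was left out (adjusted p 0.140 and 0.194 without the PNY and the SHAM array of 6 hours, 0.0642 and 0.0565 without those of 3 days, in limma's test). Between 1 day and the mean of 3 and 7 days the difference was -0.77 (SE 0.121), which missed the threshold with an adjusted p of 0.0810 in limma's test.

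Some markers of fibroblasts, endothelium and mesothelium were also lower at 6 hours. Of 6 fibroblast markers 2 were called lower (Tcf21, a transcription factor of lung fibroblasts, and Col1a1, a collagen chain), of 6 endothelial markers 2 (Kdr and Tek, receptors for vascular growth factors), and of 5 mesothelial markers 3 (Msln, Upk3b and Lrrn4). None of these 3 lists had a marker called higher. None of 7 alveolar type II cell markers was called in either direction. The 4 calls of fibroblast and endothelial markers were each lost when the PNY or the SHAM array of 6 hours was left out, and Tek and Col1a1 were called in only 1 and 2 of 8 such fits. Col1a1 also lost its call without the surgery term (adjusted p = 0.154 in limma's test). Lrrn4 was called in all 8 fits that left out an array, and Msln and Upk3b in all but that without the SHAM array of 6 hours. In the comparison of 1 day with 3 and 7 days, where Il33 differed by -0.77, none of these 3 lists had a marker called. Over all probe sets 0.0289% were called there. The median differences of the lists were -0.085 for fibroblasts, -0.048 for endothelium and 0.117 for mesothelium. The part of these cell types in the level of Il33 was not tested.

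The 4 remaining genes did not pass the test at 6 hours. Il1a, the precursor that is active without cleavage, had levels of 5.44, 5.27, 5.77 and 6.00 in PNY and of 5.23, 5.30, 5.65 and 6.09 in SHAM, in order of time. Its highest arrays were those of 7 days in both groups, and all 4 arrays of 3 and 7 days were above all 4 earlier ones. Its difference at 6 hours was -0.34 (SE 0.102, adjusted p = 0.0801 in limma's test), and at 1 day against 3 and 7 days it was -0.59 (SE 0.108, adjusted p = 0.108). Il1r1, the signalling receptor, lay between 8.30 and 8.76 on all 8 arrays, a range of 0.47 against 3.75 for the decoy Il1r2. Its difference at 6 hours was 0.21 (SE 0.114, adjusted p = 0.308 in limma's test), and that of its other probe set, with a mean level of only 2.51, was -0.05. Il18, a cytokine of epithelium and macrophages that induces interferon-γ, lay between 9.20 and 9.76, with a difference of -0.17 (SE 0.121, adjusted p = 0.426 in limma's test). Il18r1, the ligand-binding chain of its receptor, was at 9.77 on the SHAM array of 6 hours and between 10.27 and 10.53 on the other 7. Its difference was -0.33 (SE 0.139, adjusted p = 0.193 in limma's test), made up of -0.04 in PNY arrays alone and -0.62 in SHAM arrays alone.

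**Figure D3:**
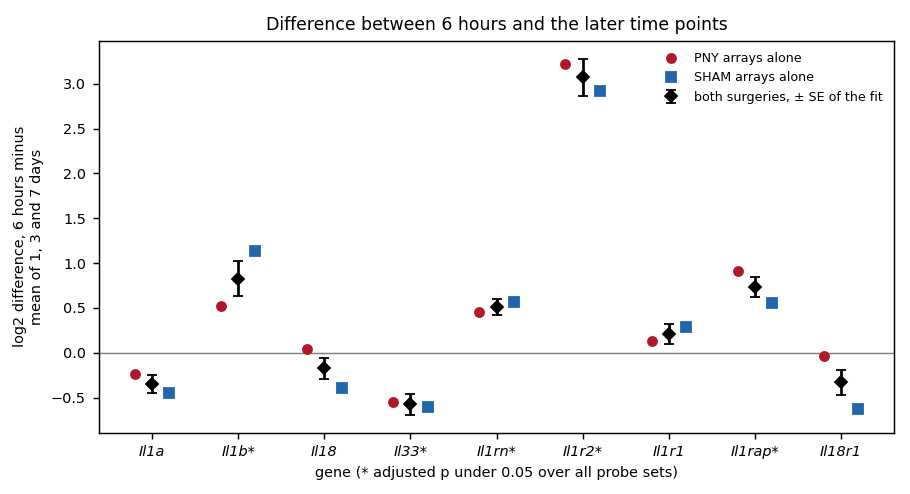
Log2 difference between 6 hours and the mean of 1, 3 and 7 days (y axis) for each measured gene (x axis). Black diamonds give limma's estimate from all 8 arrays with its SE, red circles the PNY arrays alone and blue squares the SHAM arrays alone; Il1r2 stands at 3.07, and the 5 genes that passed the test carry an asterisk.

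After 6 hours no gene of the family passed a test. In the comparison of 1 day with 3 and 7 days, 0 of 9 genes passed the test, where 0.0289% of all probe sets (13 of 45037) did. In that of 7 days with 3 days, 0 of 9 genes passed, and 0% of all probe sets. At an unadjusted p under 0.05, limma's test held 3 of the 9 genes in the first comparison, against 7180 of 45037 probe sets. In the second it held 1 of the 9 genes, against 1848 of 45037 probe sets.

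Other genes of the family were split. Of 7 measured, Il18rap, the accessory chain that pairs with IL18R1, was the only one called higher at 6 hours. It was at 7.77 in PNY and 7.55 in SHAM and between 6.54 and 6.94 later, a 1.83-fold difference (log2 0.87, SE 0.106, adjusted p = 0.00404 in limma's test), which was lost only without the PNY array of 6 hours. Il18bp, the soluble binding protein that neutralises IL-18, was the only one called lower. It was at 7.07 and 7.06 at 6 hours and between 7.25 and 7.75 later, a difference of -0.44 (SE 0.0904, adjusted p = 0.0258 in limma's test), and it was called in only 1 of 8 fits that left out an array. Il1rl2, the receptor for IL-36, had a difference of 0.37 that did not pass (adjusted p = 0.0584 in limma's test). Il1r2, Il1r1, Il1rl2, Il1rl1, Il18r1 and Il18rap follow one another in this order on chromosome 1 of GRCm38.p6, and of the 5 measured, the genes at the 2 ends were called.

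Of 15 genes of receptor signalling, 2 were called higher at 6 hours and 0 lower, with a median difference of 0.24 over the list against 0.03 over all probe sets. Peli2, a ubiquitin ligase that acts on IRAK proteins, was 1.91-fold higher (log2 0.94, SE 0.114, adjusted p = 0.00403 in limma's test). Its call was lost only without the PNY array of 6 hours, where the difference was 0.83. Ikbkg, the regulatory subunit of the IκB kinase, was 1.36-fold higher (adjusted p = 0.0397 in limma's test), and was called in 2 of 8 fits that left out an array. Myd88, the adaptor of the pathway, was 1 of 8 of the 15 genes with both 6-hour arrays above all later ones. Over all probe sets 11.6% were. Myd88 was at 9.95 in PNY and 9.89 in SHAM against 9.38 to 9.71, but it did not pass the test (adjusted p = 0.0779 in limma's test).

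Of 17 genes of cytokine maturation and release, 3 were called higher at 6 hours and 2 lower. Casp4, the inflammatory caspase that senses lipopolysaccharide, was 1.58-fold higher. Nek7, a kinase that the NLRP3 inflammasome needs, was 1.55-fold higher, and Mefv, which encodes pyrin, was 1.54-fold higher. Pycard, the adaptor that joins sensor and caspase-1, was 1.89-fold lower (log2 -0.92, SE 0.159, adjusted p = 0.0146 in limma's test), and P2rx7, the ATP-gated channel that triggers IL-1β release, was 1.35-fold lower. Each of the 5 calls was lost when the PNY or the SHAM array of 6 hours was left out, that of Nek7 also without the SHAM array of 3 days, and P2rx7 was called in 2 of 8 such fits. Casp1 itself, which cleaves IL-1β, had a difference of -0.29 that did not pass (adjusted p = 0.0950 in limma's test).

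Of 18 genes that IL-1 is known to induce, 1 was called higher at 6 hours and 3 lower. The gene called higher, Nfkbia, the inhibitor of NF-κB, was 1.33-fold higher (adjusted p = 0.0429 in limma's test) and was called in 0 of 8 fits that left out an array. Cxcl5, a neutrophil chemokine, was 2.16-fold lower at 6 hours than later (log2 -1.11, adjusted p = 0.00446 in limma's test) and was the only gene of any list called lower at 1 day than at 3 and 7 days (adjusted p = 0.00608 in limma's test). It was at 8.19 in PNY and 7.90 in SHAM at 7 days and between 4.69 and 6.49 on the 6 earlier arrays, so the 7-day arrays of both groups stood apart. Its 6-hour arrays, at 5.175 in PNY and 5.368 in SHAM, were above its 1-day arrays, at 5.029 and 4.692. The 6-hour level was thus low only against 3 and 7 days. Ptges, the terminal synthase of prostaglandin E, and Vcam1, an endothelial adhesion molecule, were 1.62-fold and 1.58-fold lower at 6 hours. Cxcl5 lost its call only without the PNY array of 6 hours, and Ptges and Vcam1 lost theirs without the PNY or the SHAM array of 6 hours.

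Of 8 genes that IL-33 is known to induce, 1 was called higher at 6 hours and 0 lower. It was Ccl17, a chemokine for type 2 T cells, which was 2.17-fold higher (log2 1.12, SE 0.217, adjusted p = 0.0211 in limma's test). The call for Ccl17 was lost without the PNY or the SHAM array of 6 hours. Il33 itself was low at 6 hours only against 3 and 7 days, and its 6-hour and 1-day arrays overlapped. Ccl17 was lowest at 1 day, at 8.01 in PNY and 7.81 in SHAM. Il4, Il5 and Il13, the type 2 cytokines of the list, reached at most 4.76 on any array, where the median of all probe sets was 5.92.

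**Figure D4:**
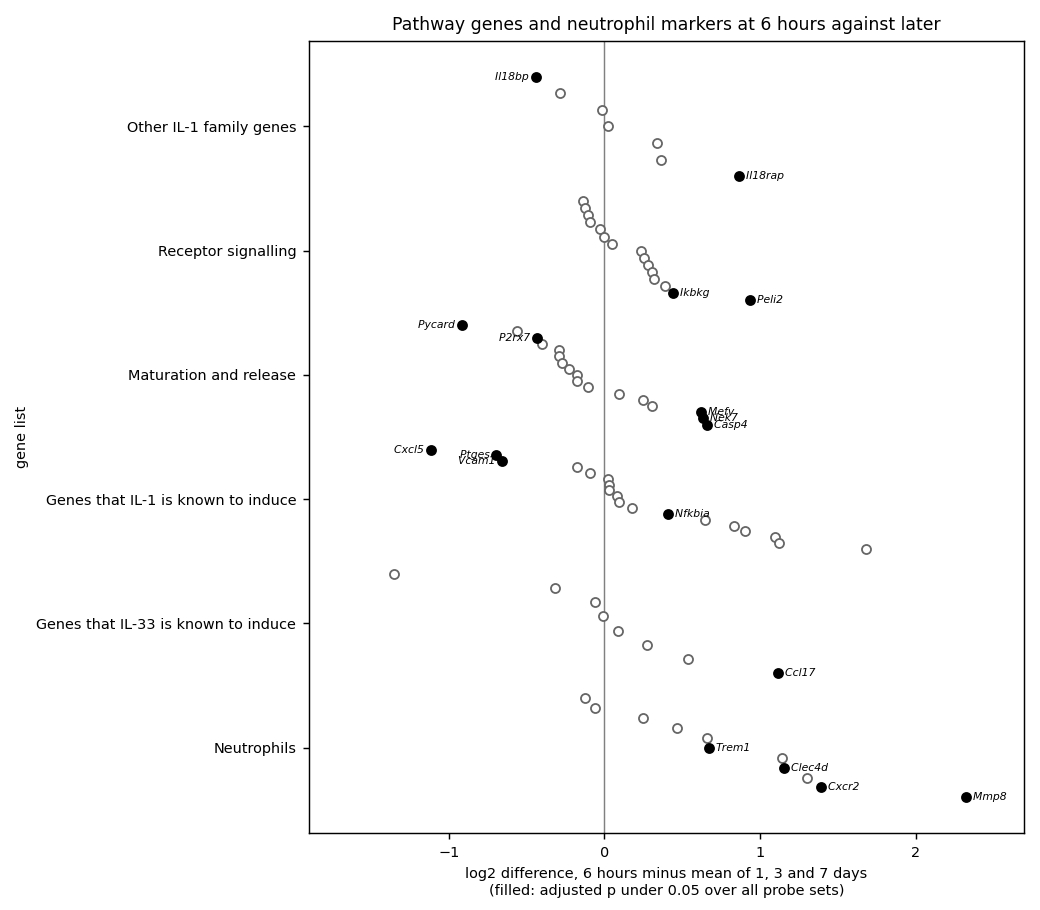
Log2 difference between 6 hours and the mean of 1, 3 and 7 days (x axis) for every measured gene of 5 pathway lists and of the neutrophil marker list (y axis; within a list the genes are ordered by value). Filled points passed limma's test at an adjusted p under 0.05 and are named; the neutrophil list lies furthest to the right, with a median of 0.68.

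The study's central question, how a lung that regrows after PNY differs from one after SHAM surgery, gave no call in the family. By rank products over the 16 pairs of a PNY and a SHAM array, at a P below 0.001 and a 1.5-fold minimum change, 0 of 9 genes were called, where 0.315% of all probe sets were called higher in PNY and 0.0555% lower. In limma's test 0 of 9 genes and 0% of all probe sets were called. An unadjusted p under 0.05 was reached by 0 of the 9 genes and by 902 of 45037 probe sets. This fit had no term for time point, and with time point as a block 0 probe sets were called and the adjusted p of the 9 genes lay between 0.907 and 0.996. Mean differences over the 4 time points were -0.15 ± 0.50 for Il1b (SD, n = 4 time points), 0.14 ± 0.53 for Il1r2 and 0.17 ± 0.20 for Il33. The other 6 genes had mean differences between -0.05 and 0.12. For each of the 9 genes the spread over time was larger than the mean difference. The exact permutation test (two-sided, 70 splits) gave a p between 0.571 and 0.971 for the 9 genes, where the smallest possible was 0.0286. These values do not show that the groups were alike, since a pair of arrays at a time point has no replicate.

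Il33 was the gene with the largest mean difference, and it was higher in PNY at 3 of 4 time points. In order of time the differences were 0.20, -0.12, 0.23 and 0.36. With time point as a block, limma's test gave a difference of 0.17 (SE 0.0992, adjusted p = 0.907). Rank products gave a P of 0.0366 for a higher level in PNY.

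Il1r2 had a rank product P of 0.00260 for a higher level in PNY and of 0.0205 for a lower one. In order of time its differences were 0.37, 0.07, 0.68 and -0.55. The sign therefore turned between 3 and 7 days. Leaving out the SHAM array of 6 hours, which leaves a PNY array of 6 hours with no partner, gave a mean difference of 0.87 and a call (permutation P = 0.000421 by rank products).

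The 2 surgeries were set side by side at each time point without a test, and 2 of the 36 values passed a fold change of 1.5. At 6 hours Il1b was 1.53-fold lower in PNY, 1 of 9 genes, where 0.877% of all probe sets were past this fold higher and 1.37% lower. At 1 day 0 of 9 genes were past it, where 2.19% of all probe sets were higher and 1.59% lower. At 3 days Il1r2 was 1.60-fold higher in PNY, 1 of 9 genes, where 1.18% were higher and 0.746% lower. At 7 days 0 of 9 genes were past it, where 1.57% were higher and 2.08% lower. Just inside the limit lay Il18r1 at 6 hours, 1.47-fold higher in PNY, and at 7 days Il1r2 and Il1b, 1.47-fold and 1.46-fold lower. The SD of the difference over all probe sets was 0.245, 0.278, 0.224 and 0.277 at the 4 time points in turn.

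**Figure D5:**
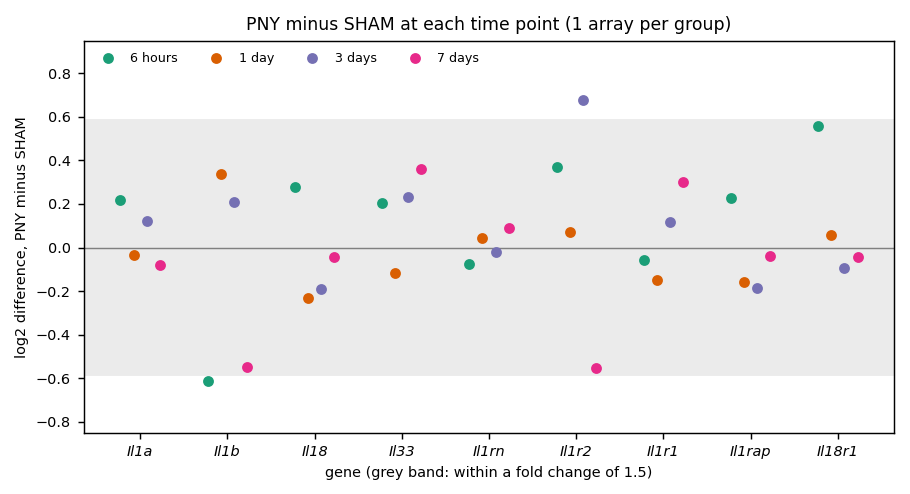
Log2 difference between the PNY and the SHAM array (y axis) at each of the 4 time points (colours) for each measured gene (x axis), with 1 array per group and so no error. The grey band marks differences within a fold change of 1.5; Il1b at 6 hours lies below it and Il1r2 at 3 days above it.

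Beside the lower Il1b and Il1r2 of PNY at 7 days, 8 of 11 neutrophil markers were at least 1.5-fold lower on that array, with a median difference of -0.86, and 1, Ltf, was 1.80-fold higher. S100a8 was at 10.85 in PNY and 12.61 in SHAM, and the summed linear level of the list was 4730 and 12330. At 6 hours, where Il1b was lower in PNY, 0 of the 11 markers were at least 1.5-fold lower and 1 was higher. The part of neutrophils in these differences was not tested.

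Some genes that IL-1 is known to induce differed at 6 hours in the same direction as Il1b, and those named here were chosen after their values were seen. Of 18, 5 were at least 1.5-fold lower in PNY. Il6, a cytokine of the acute phase response, was at 5.09 in PNY and 7.91 in SHAM, 7.05-fold lower. Cxcl1 and Cxcl2, chemokines that attract neutrophils, were 2.83-fold and 2.66-fold lower. Csf3, the growth factor of neutrophils, was 1.83-fold lower and Ccl2, a monocyte chemokine, 1.65-fold lower. The SHAM array of 6 hours was the highest of all 8 arrays for each of these 5 genes, as it was for Il1b. The direction did not last: at 3 days Il6, Ccl2 and Cxcl1 were 2.76-fold, 2.39-fold and 1.55-fold higher in PNY, and no gene of the list was at least 1.5-fold lower. The only gene of the list past this fold in the other direction at 6 hours was Saa3, an acute phase protein, 1.52-fold higher in PNY. None of the 18 genes was called by rank products over the 4 time points. Cxcl2, Il6 and Cxcl5 were under the P threshold of this permutation test and missed the 1.5-fold minimum. For Cxcl2 the permutation P was 0.000253 for a lower level in PNY and 0.234 for a higher one. For Il6 it was 0.000881 for a higher level and 0.00404 for a lower one, and for Cxcl5 0.000922 and 0.00649. The mean difference of Il6 was -0.12. Each of the values at a single time point rests on 1 array per group.

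Among genes that IL-33 is known to induce, rank products called Retnla, which encodes a secreted protein of alternatively activated macrophages, higher in PNY (mean difference 0.79, permutation P = 1.76e-05) and Arg1, arginase of the same cells, lower (mean difference -0.78, permutation P = 4.11e-06). Both genes were put on the list with their results in these samples known, so they are no independent evidence of a direction. Retnla lost its call without the PNY array of 3 days (mean difference 0.59), and also without both 3-day arrays (0.58). Arg1 was at 6.24 in PNY and 9.73 in SHAM at 7 days, and without both 7-day arrays its mean difference was 0.12. It also lost its call when PNY 6 hours, PNY 7 days, SHAM 1 day or SHAM 7 days was omitted, at -0.55, -0.35, -0.53 and -0.31. At 3 days PNY exceeded SHAM by 1.5-fold or more for 4 of the 8, namely Retnla, Arg1, Ccl17 and Ccl24, the last of which encodes an eosinophil chemokine. At 7 days Arg1 and Ccl24 were at least 1.5-fold lower and Retnla was higher.

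Whether the PNY difference shifted from early (6 hours and 1 day) to late (3 and 7 days) was tested in limma as the late minus the early difference. Of the 9 genes 0 passed, as did 0% of all probe sets. An unadjusted p under 0.05 was reached by 0 of the 9 genes and by 1246 of 45037 probe sets. The shifts ran from -0.38 (SE 0.244) for Il18r1 to 0.31 (SE 0.248) for Il1r1, and the adjusted p in limma's test was 1.00 for all 9. This model had no term for time point, so its SEs hold the differences between the time points pooled as early or late. With time point as a block, added after seeing the data, the shifts were the same and their SEs smaller, 0.213 for Il18r1, 0.174 for Il1r1 and 0.378 in place of 1.43 for Il1r2. Of the 9 genes 0 passed in that fit (adjusted p between 0.895 and 0.997 in limma's test), and 0 probe sets passed. An unadjusted p under 0.05 was reached there by 0 of the 9 genes and by 2489 of 45037 probe sets.

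Over the 8 arrays, as a description of levels that share time point and surgery, the pair of members most alike was Il1r2 and Il1rap (Pearson r = 0.944). It was followed by Il1b and Il1rn at 0.863, Il1a and Il33 at 0.861 and Il18 and Il18r1 at 0.803. Il1r2 and Il1rap were both highest on the 6-hour arrays. Their PNY minus SHAM differences had opposite signs at 1 and 3 days and the same sign at 6 hours and 7 days. Il1b and Il1a, which lie next to each other on chromosome 2, had an r of -0.08. Beyond the family, the genes most like Il1r2 were Gab2, an adaptor of growth factor and cytokine receptors, at 0.995, Cd33, a lectin of myeloid cells, at 0.994, and Srxn1, which repairs oxidised peroxiredoxins, at 0.993. All of them were higher at 6 hours, by 1.06, 0.96 and 1.17 on the log2 scale. The gene most like Il1rap was Lyve1, a hyaluronan receptor of lymphatic endothelium, at 0.997, followed by Rpain at 0.992 and Ipo13 at 0.989. Those most like Il1b were Vdr, the vitamin D receptor, at 0.990, Btbd19 at 0.955 and Osm, a cytokine of the IL-6 family, at 0.954. For Il33 they were Pigs, Akr1a1 and Ube2z, at 0.990, 0.986 and 0.985. These were the highest of up to 12151 candidate genes over only 8 arrays. The 3 genes most like Il1a were Lrp12, Atp6v1c1 and Usp40, with an r between 0.967 and 0.980, and for Il1rn they were Nepro, Arfgap3 and Cdkn2d, between 0.975 and 0.983. For Il1r1 they were Kctd5, Slc6a8 and Sh3pxd2b, between 0.955 and 0.968. For Il18 they were Lrrn4cl, Ccdc151 and Mrpl43, between 0.968 and 0.976, and for Il18r1 Zfp994, Tmem165 and Ensa, between 0.969 and 0.987.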

How the data were processed

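RNA pooled from 8 mice per array was hybridised to Affymetrix mouse whole-genome arrays. The deposited values are log2 expression values that the authors made from their scans with RMA in BioConductor (background correction, quantile normalization and summary to 1 value per probe set); the version is not given in the sources used here. The log2 base is not written beside the values and was taken from their range and from RMA's usual output. Of 45101 probe sets, 64 controls were left out and 45037 tested. In the platform annotation 34945 had 1 gene symbol, 932 several and 9160 none; 34741 of those with 1 symbol matched RefSeq, and 0 symbols changed. The probe set with the highest mean stood for a gene. The number of arrays limits the precision.

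PNY was compared with SHAM, with time points as replicates as in the study's methods, by rank products (coded in Python 3.11.15; 1000 permutations) and by limma 3.58.1 in R 4.3.3 (lmFit, eBayes, Benjamini-Hochberg over all probe sets tested, threshold 0.05). Time points were compared in limma with time point and surgery as terms, so that the PNY and the SHAM array of a time point act as its 2 replicates. P-values therefore measure spread between pooled arrays of different times or surgeries, not between mice. Deviations from group means correlated at 0.605, 0.357, 0.303 and 0.295 between the arrays of the same time point, in order of time. Between arrays of different time points the values ran from -0.508 to 0.340. The highest of these, PNY 7 days with SHAM 3 days, was above the same-time values of 3 and 7 days. The time point thus paired the arrays clearly only at 6 hours, and the same-time value of 1 day was just above 0.340. The reported fits of PNY against SHAM do not use this pairing, as in the study's analysis with time points as replicates. The study's other analysis compared PNY with SHAM within each time point. The fit of late against early, which is not from the study, does not use the pairing either. Fits with time point as a block are given beside the reported ones. The code for rank products and limma was run on simulated arrays with large planted changes and the same spread for every probe set. That run gives no measure of power for the smaller differences in these data. Exact permutation tests (two-sided) were run for single genes.

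The rule for named genes took all 10 family members, the genes of each pathway list that were called in a comparison (otherwise the 3 with the largest difference at 6 hours), and the 3 genes most alike to each member by Pearson r among genes with a mean above the median level. The members, the lists of pathway genes and markers, and the tests were chosen with earlier results of these data known. The lists held other IL-1 family genes, receptor signalling, maturation and release, genes induced by IL-1 or by IL-33, and markers of neutrophils, monocytes, alveolar macrophages, alveolar type II cells, endothelium, fibroblasts, mast cells and basophils, innate and type 2 lymphocytes, T cells, mesothelium and striated muscle. Of the lists not described with the results, called higher and lower at 6 hours were 0 and 1 of 7 monocyte markers (Cx3cr1), 1 and 1 of 8 alveolar macrophage markers (Krt79 and Marco), 1 and 0 of 6 lymphocyte markers (Rora, lost with centring), and 0 of 8 mast cell and basophil, 0 of 6 T cell and 0 of 5 striated muscle markers. Alternatives were another centring, a second quantile normalization, a filter at the median level (5.92), other variance priors and models, other probe sets, a fold change of 2, and leaving out arrays.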

Additional observations from a re-analysis of the deposited data

Results flagged for a closer look

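In each group of 4 arrays the highest or lowest array was set against the others by the ratio of its gap to the whole range (Dixon's ratio, against its 95% critical value). Of 18 groups, 9 genes in each surgery, 2 were past it, and chance passes about 1 in 20. Both were Il1rap. Its PNY array of 6 hours, at 8.27, stood above 7.30 to 7.41 with a ratio of 0.891, and its SHAM array of 6 hours, at 8.04, stood above 7.45 to 7.51 with a ratio of 0.891. The far array was thus that of 6 hours in both surgeries, the difference that the limma test also called. Il1r2 had the larger difference but a wider spread among its later arrays, and it did not pass.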

How the results depend on the processing

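Of the results at 6 hours against later, all 9 genes kept their direction and their side of the threshold with each array centred on its median, with a second quantile normalization, with the filter at the median level (which removes Il1a), without the surgery term (no replicate block) and with a trended and robust variance prior. Called probe sets were 3839, and 5833 with that prior. Leaving out 1 array at a time gave 1 to 5 called genes (1 without PNY 6 hours, 2 without SHAM 6 hours or PNY 3 days, 3 without SHAM 3 days) and 417 to 3400 called probe sets, as fewer arrays were then tested. Il1r2 was called in 8 of 8 such fits, Il1rap in 7, Il1rn in 5, Il33 in 4 and Il1b in 2. The exact permutation test called 0 genes, which its smallest p does not allow. The fourth other probe set of Il1rap gave -0.0956 in place of 0.73, and the cause was not tested. At 1 day against 3 and 7 days, 13 probe sets became 52 with centring, 49 with the filter and 500 with the trended and robust prior, and 1 gene of the family, Il33, was then called (adjusted p = 0.00721 in limma's test). Leaving out an array gave 2 to 410 probe sets and 0 to 1 genes, again Il33, without SHAM 7 days (adjusted p = 0.0478 in limma's test). At 7 days against 3 days the trended and robust prior gave 2 probe sets. Of PNY against SHAM by rank products, 167 probe sets became 286 without a fold minimum and 102 with the filter. They were 87, 290 and 85 without both arrays of 3 days, 6 hours and 7 days, and 65 to 348 without single arrays, where 0 to 1 genes of the family were called (Il1r2, without SHAM 6 hours). With time point as a replicate block, rank products gave 169 probe sets and limma 0, and no call in the family changed. The late against early fit with that block, added after seeing the data, gave 0. Among list genes called at 6 hours, Clec4d (trended and robust prior), Col1a1 (no surgery term) and Rora (centring) were the 3 that lost a call to such a setting. Without both 7-day arrays Arg1 reversed, to 0.1207. Leaving out arrays gave 0 to 1 probe sets by limma for PNY against SHAM and 0 to 14 for the late against the early difference. At a fold change of 2 in place of 1.5, 0 genes remained past it at 6 hours and 0 at 3 days.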
